A study of Mus musculus with 20 samples.

Results

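The genes for the voltage-gated sodium and calcium channels of mouse brain were examined, as 40 genes chosen by symbol. They comprise the sodium channel pores and beta subunits, whose symbols start with Scn, the calcium channel pores (Cacna1a to Cacna1i and Cacna1s) and the calcium channel alpha2delta, beta and gamma subunits (Cacna2d1 to Cacna2d4, Cacnb1 to Cacnb4 and Cacng1 to Cacng8). All 40 were found in both deposited tables, among 55487 genes measured in prefrontal cortex and 57180 in hippocampus. Of these, 20 encode a pore-forming subunit (10 for sodium and 10 for calcium) and 20 an auxiliary subunit (4 sodium beta, 4 alpha2delta, 4 calcium beta and 8 gamma).

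A voltage-gated sodium channel is a single large pore protein that opens on depolarisation and carries the upstroke of the action potential, and its small beta subunits adjust gating and hold the channel at the membrane. A voltage-gated calcium channel turns the action potential into calcium entry, which triggers transmitter release and signals to the nucleus. Its cytoplasmic beta subunit and its extracellular alpha2delta subunit carry the pore to the surface. Most of the proteins named gamma act in brain chiefly as partners of AMPA-type glutamate receptors, known as TARPs, rather than as calcium channel subunits.

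RNA was measured in wild-type C57/BL6 mice aged 2 to 6 months, 24 hours after treatment. In prefrontal cortex of male mice, 5 mg/kg of LPS (lipopolysaccharide, from the outer membrane of bacteria, which provokes systemic inflammation), injected intraperitoneally, was compared with 0.9% saline, with 4 libraries in each group. In hippocampus, 0.2 mg/kg of nicotine was compared with saline, with 6 libraries in each group. The cortical libraries were labelled as batch 1 and the hippocampal libraries as batch 2, so tissue and batch cannot be told apart, and no agent was given to both tissues. Every group consisted of unmodified animals with no transgene or deletion. The labels do not say which libraries came from separate animals, so p-values measure only the spread between these libraries.

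In 4 of the 8 cortical records the title and treatment field name the opposite treatment from the column name quoted in the description. Libraries were grouped by that column name, which makes 1L, 3L, 6L and 8L the saline group and leaves 2L, 4L, 5L and 7L for LPS. By the titles, Samples 2L and 4L would be saline and Samples 6L and 8L LPS. Grouped by column name, 7313 of 17760 genes tested passed an adjusted p of 0.05 with edgeR's quasi-likelihood test, whereas grouped by title 0 did, with 201 at an unadjusted p under 0.05. The directions in cortex rest on the column names. Library totals ranged from 36371084 to 46106526 counts in cortex and from 51969343 to 68196280 in hippocampus. Neuronal markers had a mean log2 CPM of 8.88 to 9.14 over the 8 cortical libraries. Levels are CPM, counts relative to the library total scaled by the TMM method, in which 3 counts correspond to 0.0426 to 0.0808 CPM. In hippocampus, saline Sample 2N was the lowest library for 23 of the 35 channel genes tested. Results that rest on it are given with and without it. In whole-tissue RNA, fewer cells of a type and less RNA per cell cannot be told apart.

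In saline cortex the auxiliary genes were more abundant than the pore genes when each level was divided by the length of the gene's exons. The median auxiliary gene was 3.56 ± 0.48 (SD, n = 4) times the median pore gene in CPM per kb. Among the most abundant were Cacng7, a TARP, with 115 ± 6.64 CPM per kb, Cacnb3, a calcium beta subunit, with 85.9 ± 4.76, and Scn2b, a sodium beta subunit, with 62.1 ± 3.11. Each of these 3 stood apart from the next in order by more than the spread between libraries. From Scn3b at 26.7 ± 1.88 down to Cacna2d1 at 16.7 ± 1.04 CPM per kb, the 11 genes in order did not differ from their neighbours beyond that spread.

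Among the pores, Scn2a (23.6 ± 3.11 CPM per kb) and Scn8a (21.1 ± 2.86) were highest for sodium. Both serve the axon initial segment of excitatory neurons. Cacna1a, the P/Q-type channel of presynaptic terminals, led the calcium pores with 17.6 ± 1.60 CPM per kb and was not separated from Cacna1i, a low-voltage-activated T-type channel, at 17.0 ± 2.40. The lowest in cortex were Scn4a and Cacna1f, the channels known from skeletal muscle and retina, which had 6 and 13 counts over all 4 saline libraries and were left out of the test for low counts.

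In hippocampus, measured and normalised separately (n = 6), genes among the most abundant were Cacng7 (62.8 ± 4.05 CPM per kb), Scn2b (59.0 ± 6.14), Cacng8 (57.8 ± 8.96) and Cacnb3 (53.4 ± 4.37), and neighbours within these 4 did not differ beyond the spread. Scn8a at 26.2 ± 5.49 and Scn2a at 23.0 ± 4.48 CPM per kb were the highest pores. Scn4b, at 19.8 ± 9.59 CPM per kb in cortex, was at 2.96 ± 0.58 in hippocampus. Cacng5 was at 21.7 ± 4.64 in cortex and 2.54 ± 0.37 in hippocampus. These pairs of values come from different batches and were not compared by a test.

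**Figure D1:**
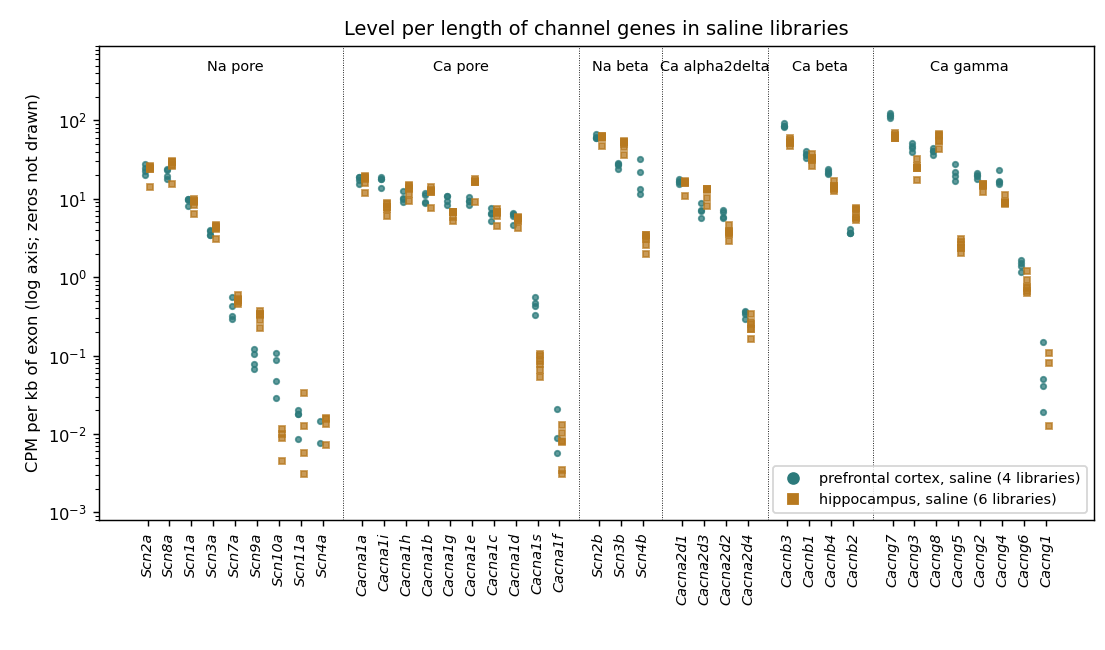
Level of 38 of the 40 genes in saline libraries, in TMM-normalised CPM per kb of exon on a log axis, grouped by subunit class, with 1 point for each of 4 prefrontal cortex and 6 hippocampal libraries (zeros not drawn). Cacng7, Cacnb3 and Scn2b lie high in both tissues, and Scn4a, Cacna1f, Scn10a, Scn11a and Cacng1 lie lowest.

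With LPS, 7 of the 38 channel genes tested in cortex rose and 8 fell. The split of the 2 directions between pore and auxiliary subunits is given as counts and was not tested. Of 18 pore genes, 4 rose, all of them sodium channels (Scn1a, Scn8a, Scn10a and Scn11a), and 1 calcium channel, Cacna1i, fell. Of 20 auxiliary genes, 3 rose (Cacnb2, Cacnb4 and Cacng1) and 7 fell (Cacnb3, Cacng3, Cacng4, Cacng5, Cacng8, Scn2b and Scn3b).

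These counts sit on a large background. Over all genes tested, 21.5% rose and 19.7% fell, 41.2% in all, and the channel genes were called in 39.5% of cases, near that share. The share was 27.8% for pore genes and 50% for auxiliary genes, and the difference between those shares was not tested. The median log2 change was 0.02 over channel genes, 0.09 over pores, -0.02 over auxiliary genes and 0.01 over all genes. The median size of change regardless of direction was 0.24 for channel genes and 0.31 for all genes. Groups did not overlap for 10 of the 38 (26.3%), against 37.1% of all genes. Scn11a and Cacng1 passed the filter on low counts through the LPS libraries only, so they had to differ.

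**Figure D2:**
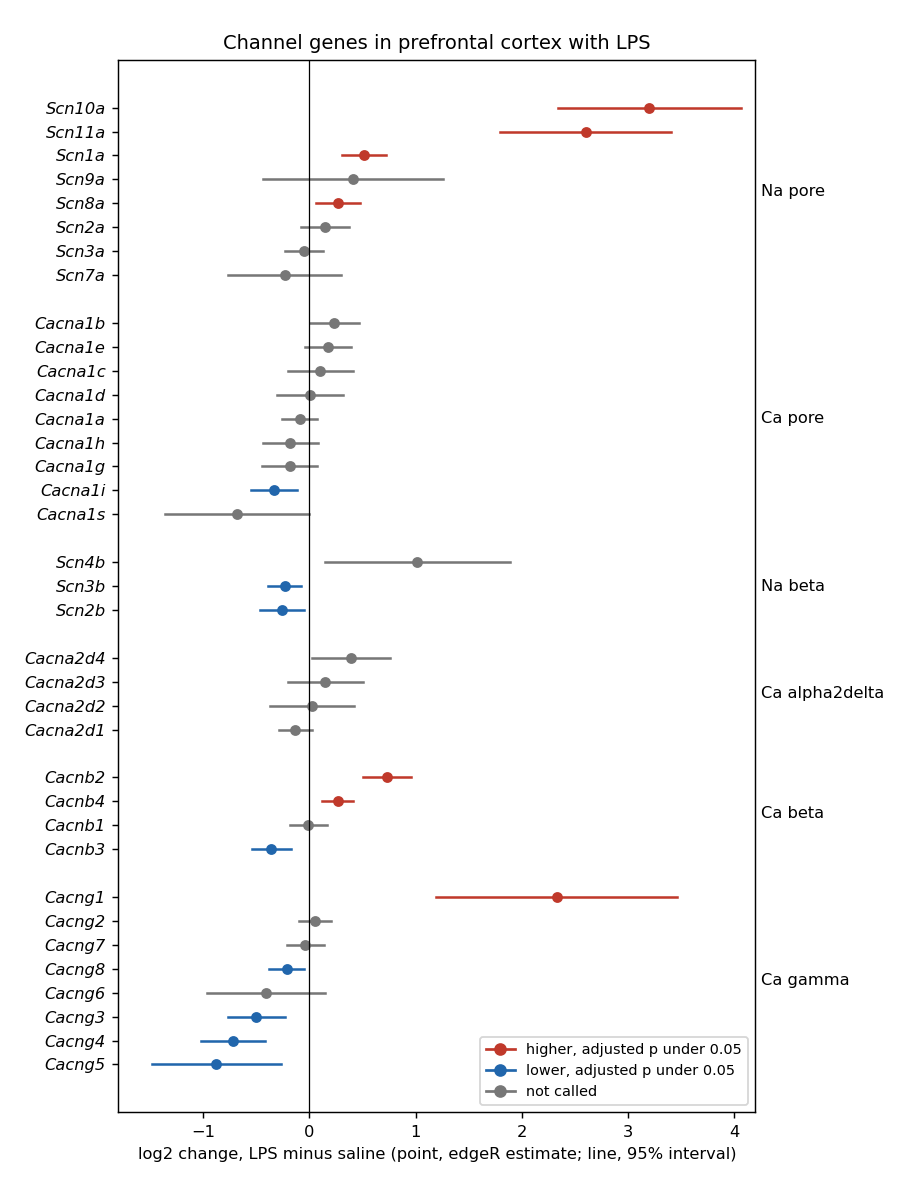
Change in log2 scale between LPS and saline in prefrontal cortex for 36 of the 38 channel genes tested, grouped by subunit class, with the edgeR estimate as a point and its 95% confidence interval as a line. Red marks the 7 genes that rose, blue the 8 that fell and grey those not called. Scn10a, Scn11a and Cacng1 lie furthest right, with changes of 3.20, 2.60 and 2.33, and 4 of the 8 gamma genes lie to the left in blue.

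Sodium channel pores were the class in which all calls were upward, with 4 of 9 tested called higher, 0 lower and a median log2 change of 0.27. That is 44.4% called, near the 41.2% of all genes. The largest changes were in Scn10a and Scn11a, which encode the tetrodotoxin-resistant sodium channels of pain-sensing peripheral neurons and are neighbours on mouse chromosome 9. Scn10a spans chr9:119608456-119719322 and Scn11a chr9:119753759-119825456, both on the minus strand of mm10, with 34.4 kb between them. The 250 bases before each gene's start are shown because the members of this pair rose together. They come from RefSeq (GRCm38.p6), run 5′ to 3′ on the gene's strand and carry each CG pair in capitals. The Scn10a window is chr9:119719033-119719282 and the Scn11a window chr9:119825457-119825706.
Scn10a: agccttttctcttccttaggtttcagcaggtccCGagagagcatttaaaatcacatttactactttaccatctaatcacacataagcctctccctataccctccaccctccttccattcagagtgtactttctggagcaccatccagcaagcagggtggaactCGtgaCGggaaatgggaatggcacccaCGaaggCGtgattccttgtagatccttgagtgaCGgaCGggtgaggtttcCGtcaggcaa
Scn11a: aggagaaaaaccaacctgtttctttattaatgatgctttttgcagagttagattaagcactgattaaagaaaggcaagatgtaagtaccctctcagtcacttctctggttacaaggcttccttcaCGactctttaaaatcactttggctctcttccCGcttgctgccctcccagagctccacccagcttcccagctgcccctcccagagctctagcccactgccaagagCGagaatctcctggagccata
The Scn10a window holds 8 CG pairs and the Scn11a window 3. As few or fewer were found in 59.7% and 37.8% of the 32851 RefSeq promoter entries, whose median was 6.

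Scn10a measured 0.231, 0.701, 0.380 and 0.855 CPM in the saline Samples 1L, 3L, 6L and 8L, and 8.25, 4.29, 3.75 and 3.66 CPM in the LPS Samples 2L, 4L, 5L and 7L. The lowest LPS library stood well above the highest saline library, and Sample 2L was the highest of all. The counts behind these levels were 9 to 36 with saline and 143 to 344 with LPS. The log2 change was 3.20 (SE 0.39, 95% interval 2.34 to 4.06, adjusted p = 0.00012 by edgeR's quasi-likelihood test), from a mean of 0.542 ± 0.286 to 4.99 ± 2.19 CPM.

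Scn11a measured 0.0513, 0.108, 0.106 and 0.119 CPM in the saline libraries and 0.576, 0.516, 0.647 and 0.665 CPM with LPS, in the same library order. Again the groups did not overlap, though Scn11a passed the filter on low counts through the LPS libraries only. Its LPS libraries lay close together. Its counts were 2 to 5 with saline and 22 to 26 with LPS, so the level is low in absolute terms. Its log2 change was 2.60 (SE 0.37, adjusted p = 0.000277, edgeR). In hippocampus both genes were low, with 0 to 0.0926 CPM for Scn10a and 0 to 0.199 CPM for Scn11a across 12 libraries. Neither was tested there.

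The coding gene beside Scn11a, Wdr48, chosen after its values were seen, fell by 0.31 (adjusted p = 0.0199, edgeR). Of the markers of peripheral nerve, Prx, a protein of its myelin sheath, was at 0.431 to 0.737 CPM with saline and 0.537 to 1.49 CPM with LPS and did not pass the test (0.67, adjusted p = 0.159, edgeR). Pmp2 was at 0 in all cortical libraries. Of the 3 markers listed, 2 were tested and 1 was called lower. The mean log2 CPM of those 2 was -0.35 to 0.30 with saline and -1.03 to -0.65 with LPS. Their part in the changes of Scn10a and Scn11a was not tested.

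Scn1a, the sodium channel that fast-spiking interneurons depend on, measured 110.1, 108.1, 90.7 and 111.6 CPM in the saline libraries and 170.2, 146.7, 152.8 and 130.8 CPM with LPS. All 4 LPS libraries lay above all 4 saline libraries. The fitted log2 change was 0.51 (SE 0.09, adjusted p = 0.00131, edgeR), from 105 ± 9.75 to 150 ± 16.3 CPM. Of 6 interneuron markers, 1 rose and 1 fell, with a median log2 change of -0.14, where 41.2% of all genes were called. Their mean in log2 CPM ranged over 7.03 to 7.15 with saline and over 6.85 to 7.14 with LPS. Their part in the change of Scn1a was not tested.

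Scn8a, which carries high-frequency firing at the axon initial segment and nodes of Ranvier, measured 378.7, 306.3, 284.4 and 363.9 CPM with saline and 437.4, 396.6, 396.7 and 375.2 CPM with LPS. The groups overlapped, because saline Sample 1L exceeded LPS Sample 7L. The log2 change of 0.27 (SE 0.09, adjusted p = 0.0392, edgeR) was lost when any 1 of Samples 2L, 3L, 4L, 5L or 6L was left out, with adjusted p between 0.0789 and 0.119.

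Scn2a, the most abundant sodium pore per length, measured 311.1, 283.8, 256.0 and 348.7 CPM with saline and 362.5, 348.4, 332.5 and 282.2 CPM with LPS. The groups overlapped, and the change of 0.14 (95% interval -0.08 to 0.37) did not pass the test. Scn3a, the pore typical of immature neurons, had a log2 change of -0.05 (95% interval -0.23 to 0.13). Scn7a and Scn9a, both below 5 CPM, did not pass either, with changes of -0.23 and 0.41.

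Of 9 calcium channel pores tested, 1 fell and 0 rose, and the median log2 change was -0.09. That is 11.1% called, against 41.2% of all genes, a difference that was not tested. Cacna1i, the T-type channel named above, measured 186.6, 133.3, 174.5 and 177.5 CPM in the saline libraries and 135.2, 123.7, 141.7 and 133.6 CPM with LPS. Saline Sample 3L lay within the range of the LPS libraries and the other 3 saline libraries above it. The change on the log2 scale was -0.33 (SE 0.10, adjusted p = 0.0189, edgeR). It no longer passed without Sample 1L (adjusted p = 0.0606) or without Sample 4L (0.0576).

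Cacna1a measured 214.4, 175.1, 198.9 and 213.2 CPM with saline and 194.6, 180.9, 188.5 and 188.5 CPM with LPS. The LPS libraries fell inside the saline range, and the change of -0.09 (95% interval -0.25 to 0.07) did not pass the test. The other high-voltage-activated pores, Cacna1b (N-type), Cacna1c and Cacna1d (L-type) and Cacna1e (R-type), had changes of 0.24, 0.10, 0.01 and 0.18. The T-type pores Cacna1g and Cacna1h had changes of -0.19 and -0.18. None of these 6 passed the test. Cacna1c passed with only the 4 libraries whose labels agree (0.43, adjusted p = 0.0314, edgeR). Cacna1s, the skeletal muscle L-type pore, was at 2.16 to 3.67 CPM with saline and 1.09 to 3.05 CPM with LPS. It had a log2 change of -0.68 (adjusted p = 0.0975, edgeR), which passed only without Sample 7L (-1.05, adjusted p = 0.0114). An antisense gene, Gm37759, overlaps 20% of its exons, and the strand setting of the counting is not given in the sources used here.

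Of the calcium beta subunits, which bind the inner face of the pore and bring it to the membrane, 3 of 4 changed and not in the same direction. That is 75% called, against 41.2% of all genes, a difference that was not tested. Cacnb2 measured 48.5, 47.9, 49.0 and 54.5 CPM in the saline libraries and 84.8, 86.5, 94.7 and 66.1 CPM with LPS. The groups were fully separated, with Sample 7L the lowest of the LPS libraries. LPS minus saline gave a log2 change of 0.73 (SE 0.10, adjusted p = 0.000266, edgeR), from 50 ± 3.05 to 83 ± 12.1 CPM. Cacnb2 has more than 1 annotated start, and the 250 bases before each of a pair of them are shown because gene counts do not tell which start was used. The first window is chr2:14604056-14604305 and the second chr2:14823842-14824091 (RefSeq, GRCm38.p6, plus strand, CG pairs in capitals).
Cacnb2, first window: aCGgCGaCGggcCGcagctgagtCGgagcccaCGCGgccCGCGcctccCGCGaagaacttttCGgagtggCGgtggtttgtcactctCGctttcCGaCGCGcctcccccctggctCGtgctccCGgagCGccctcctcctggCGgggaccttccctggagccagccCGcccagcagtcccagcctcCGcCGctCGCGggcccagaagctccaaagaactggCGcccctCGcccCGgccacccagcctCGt
Cacnb2, second window: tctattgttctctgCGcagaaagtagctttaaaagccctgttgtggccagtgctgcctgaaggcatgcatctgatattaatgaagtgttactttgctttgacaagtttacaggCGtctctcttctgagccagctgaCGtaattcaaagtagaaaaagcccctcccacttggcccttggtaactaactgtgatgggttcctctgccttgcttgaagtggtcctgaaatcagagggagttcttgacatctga
The first holds 30 CG pairs and 73.2% G or C, and the second 3 CG pairs and 46.0% G or C.

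Cacnb4, the beta subunit whose loss causes the lethargic phenotype in mice, measured 187.7, 192.0, 200.2 and 213.1 CPM with saline and 251.0, 236.9, 240.5 and 224.5 CPM with LPS. The groups did not overlap. The log2 change was 0.26 (SE 0.07, adjusted p = 0.00783, edgeR). A processed transcript on the opposite strand, A430018G15Rik, overlaps 16% of its exons.

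Cacnb3, the most abundant beta subunit per length, went the other way. It measured 372.6, 330.6, 336.8 and 337.5 CPM with saline and 254.5, 248.7, 255.9 and 315.1 CPM with LPS. Every LPS library lay below every saline library, although Sample 7L was close to the saline range. Its log2 change was -0.36 (SE 0.08, adjusted p = 0.00555, edgeR). Within each library, the ratio of Cacnb3 to Cacnb2 in CPM was 6.19 to 7.69 with saline and 2.70 to 4.77 with LPS. Both genes were already separated in opposite directions, so this ratio had to differ. Cacnb1, known for its muscle form and also expressed in brain, had a change of -0.01 (95% interval -0.19 to 0.16).

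**Figure D3:**
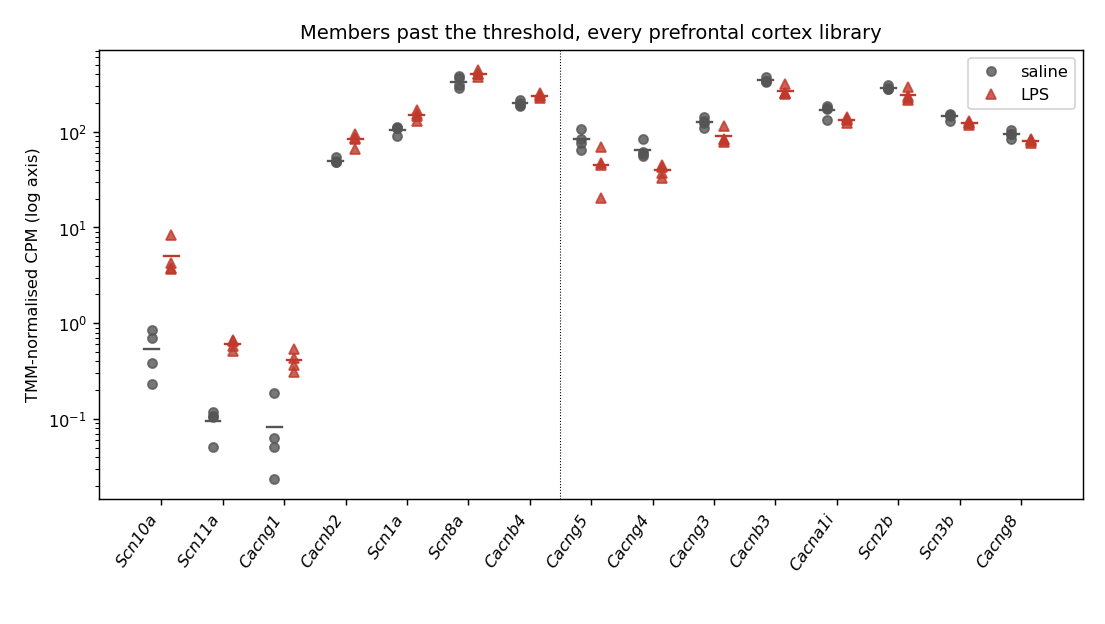
TMM-normalised CPM of the 15 channel genes past the threshold in each prefrontal cortex library, on a log axis, with saline as grey circles, LPS as red triangles and a short line at each group's mean. The 7 genes that rose are left of the dotted line, from Scn10a with its separated groups to Cacnb4. The 8 that fell are right of it, from Cacng5 with the largest change among them, with overlapping groups for Cacng5, Cacng3, Cacna1i, Scn2b and Cacng8.

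Of the 8 gamma genes, 4 were called lower and 1 higher (62.5% called), with a median log2 change of -0.31. Over all genes tested, 19.7% were called lower and 41.2% either way, and the difference from those shares was not tested. Cacng2 (stargazin), Cacng3, Cacng4 and Cacng8 are the type I TARPs, which deliver AMPA receptors to the synapse, and 3 of these 4 fell. Cacng4 measured 60.8, 58.8, 83.9 and 55.4 CPM in the saline libraries and 42.5, 32.8, 45.0 and 37.2 CPM with LPS. The groups did not overlap, and saline Sample 6L was the highest. The fitted log2 change was -0.72 (SE 0.14, adjusted p = 0.0018, edgeR), from 64.7 ± 13 to 39.4 ± 5.42 CPM. Markers of more than 1 cell type were lower in the same libraries. Of 5 markers of oligodendrocyte precursors, 4 fell and 1 (Pdgfra) rose, and their mean log2 CPM was 4.35 to 4.60 with saline and 3.20 to 3.86 with LPS. Oligodendrocyte markers were at 7.26 to 7.58 and 6.61 to 7.06, and microglia markers at 5.64 to 5.80 and 4.61 to 5.12. Astrocyte markers overlapped, at 8.19 to 8.25 and 8.22 to 8.45. The part of any of these markers in the change of Cacng4 was not tested.

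Cacng3, a type I TARP of cerebral cortex, measured 141.4, 124.1, 110.0 and 130.3 CPM with saline and 114.6, 81.8, 84.0 and 77.4 CPM with LPS. LPS Sample 2L lay above saline Sample 6L, and the other 3 LPS libraries lay below all saline libraries. The change on the log2 scale was -0.50 (SE 0.12, adjusted p = 0.00692, edgeR). Cacng8, the type I TARP prominent in hippocampus, measured 103.3, 83.6, 93.9 and 94.0 CPM with saline and 76.7, 80.8, 81.8 and 83.9 CPM with LPS. The groups overlapped by a small margin. Its change of -0.21 (adjusted p = 0.0383, edgeR) was lost without any 1 of Samples 1L, 2L, 4L, 5L, 6L or 8L, with adjusted p from 0.0616 to 0.122. Cacng2, the fourth, had a change of 0.05 (95% interval -0.10 to 0.21).

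Cacng5 and Cacng7 are the type II TARPs. Cacng5 measured 84.9, 65.2, 107.0 and 75.7 CPM in the saline libraries and 20.4, 45.0, 46.6 and 69.4 CPM with LPS. Sample 7L lay within the saline range, and Sample 2L was the lowest of all. LPS minus saline gave a log2 change of -0.88 (SE 0.28, adjusted p = 0.0258, edgeR), and it did not pass without Sample 1L (adjusted p = 0.0525), 4L (0.0587) or 6L (0.0724). Cacng7, the most abundant gamma gene per length, measured 302.9, 265.0, 281.6 and 273.8 CPM with saline and 252.8, 262.6, 265.2 and 313.3 CPM with LPS. The groups overlapped, and the change of -0.04 (95% interval -0.21 to 0.13) did not pass.

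Cacng1, the gamma subunit of the skeletal muscle calcium channel, was the exception in direction. It measured 0.0513, 0.189, 0.0634 and 0.0238 CPM with saline and 0.432, 0.540, 0.362 and 0.307 CPM with LPS. The counts behind them were 1 to 7 with saline and 12 to 23 with LPS, and the groups did not overlap. Cacng1 passed the filter on low counts through the LPS libraries only. The log2 change was 2.33 (SE 0.52, adjusted p = 0.00425, edgeR). Skeletal muscle markers were low. Ckm reached 0.119 CPM with saline and 2.18 CPM with LPS, Tnnt3 0.127 and 2.28 CPM, and Acta1 and Myh4 did not pass the test. Ckm and Tnnt3 were left out of the test for low counts. The mean log2 CPM of Acta1 and Myh4 alone was 0.55 to 1.38 with saline and 0.86 to 2.30 with LPS. The part of skeletal muscle markers in the change of Cacng1 was not tested. Cacng6, its relative in muscle, had a change of -0.41 (adjusted p = 0.225, edgeR).

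Cacng1, Cacng4 and Cacng5 lie side by side on mouse chromosome 11 within chr11:107703218-107915055 (mm10), with 15.8 kb and 80.0 kb between them, and they moved in different directions. Of the coding genes flanking the cluster, chosen after their values were seen, Prkca fell by 0.41 (adjusted p = 0.00493, edgeR) and Helz had a change of -0.44 (adjusted p = 0.0991). Summed over the family, gamma genes had 243.6 to 280.9 CPM per kb with saline and 212.8 to 242.6 with LPS. The sums of the 2 groups did not overlap.

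RefSeq held promoter entries, from 250 bases before to 50 after the start, for 30 of the 40 channel genes (41 entries). On either strand, the AP-1 motif TGANTCA was in 2.44% of these and in 7.81% of all 32851 entries. The NF-kB motif GGGNNTTCC was in 4.88% and 5.82%, the STAT motif TTCNNNGAA in 12.2% and 8.30%, and the C/EBP motif TTGCNNAA in 4.88% and 10.8%. The CRE motif TGACGTCA was in 0% and 1.79%. TTCAGCACC, the left side of the RE1 element that represses neuronal genes elsewhere, was in 0% and 0.371%. These are matches of letters in a window and say nothing of binding.

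Of the sodium beta subunits, 2 of 4 fell and 0 rose (50% called, against 41.2% of all genes). Scn3b, which is linked to the pore without a covalent bond, measured 147.5, 130.7, 153.7 and 150.5 CPM in the saline libraries and 118.2, 129.2, 123.6 and 124.3 CPM with LPS. The groups did not overlap, though saline Sample 3L came close. Its log2 change was -0.23 (SE 0.07, adjusted p = 0.0188, edgeR). Scn2b, bound to the pore by a disulfide bridge, was at 279 to 310 CPM with saline and 215 to 292 CPM with LPS. Sample 2L was the one LPS library within the saline range. Its change of -0.26 (adjusted p = 0.0441, edgeR) was lost when any 1 library except Sample 2L was left out, with adjusted p from 0.0564 to 0.113.

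Scn4b, the beta subunit tied to resurgent sodium current and abundant in striatum, varied most. It measured 57.9, 108.1, 162.3 and 66.3 CPM in the saline libraries and 266.5, 163.6, 295.0 and 73.2 CPM with LPS. The highest values were in Samples 2L and 5L, and LPS Sample 7L lay within the saline range. The fitted log2 change was 1.02 (SE 0.40, adjusted p = 0.0593, edgeR). It passed without Sample 6L (1.36, adjusted p = 0.0232) and without Sample 7L (1.29, adjusted p = 0.00886).

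A set of 10 striatal markers, none of which passed the test, moved with Scn4b from library to library. Their mean log2 CPM was 4.58, 6.22, 6.93 and 5.40 in the saline libraries and 7.00, 6.43, 7.17 and 4.49 with LPS, so Samples 1L, 7L and 8L were lowest on both measures. With this mean as a covariate the change of Scn4b was 0.61 (adjusted p = 0.000981, edgeR). Cacna2d3, an alpha2delta subunit, followed the same markers, at 50.2, 62.9, 76.4 and 60.3 CPM with saline and 86.1, 68.0, 74.4 and 48.9 CPM with LPS. Its change was 0.15 (adjusted p = 0.479, edgeR), and 0.02 with the covariate. The share of striatal tissue in each piece was not tested.

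**Figure D4:**
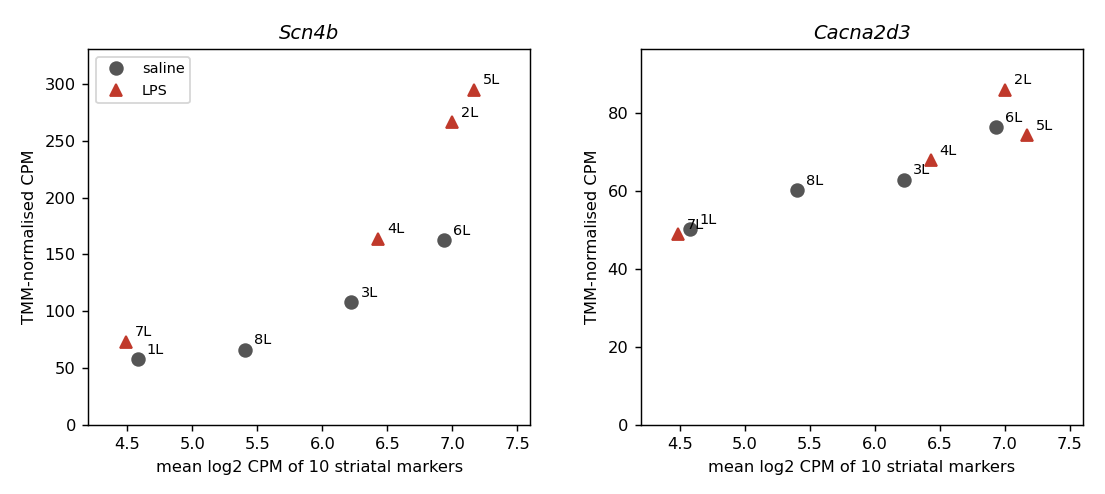
TMM-normalised CPM of Scn4b (left) and Cacna2d3 (right) in each of the 8 prefrontal cortex libraries against the mean log2 CPM of 10 striatal markers in the same library, with saline as grey circles and LPS as red triangles. Cacna2d3 is lowest in Samples 1L and 7L, where the markers are at 4.58 and 4.49, and Scn4b is low there and in Sample 8L. Scn4b is highest in Samples 2L and 5L, where the markers are at 7.00 and 7.17.

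The alpha2delta subunits are extracellular proteins that raise the number of calcium channels at synapses and include the target of gabapentin. By edgeR 0 of 4 were called, against 41.2% of all genes, and 0 by DESeq2. At an unadjusted p under 0.05 by edgeR was 1 of 4 (25%), against 49.6% of all genes. Cacna2d1, their most abundant member per length, measured 210.4, 202.6, 193.2 and 223.7 CPM with saline and 177.1, 192.9, 182.8 and 205.0 CPM with LPS. The groups overlapped, and the change was -0.13 (95% interval -0.29 to 0.02). Cacna2d2 had a change of 0.02. Cacna2d4, at 2.78 to 3.51 CPM with saline and 3.73 to 5.28 with LPS, did not overlap between groups but did not pass the test (0.39, adjusted p = 0.0826, edgeR).

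Summed per length, sodium pores had 51.9 to 66.0 CPM per kb with saline and 62.4 to 77.3 with LPS, and calcium pores 74.1 to 92.5 and 77.7 to 88.3. The auxiliary genes together had 722 to 792 CPM per kb with saline and 682 to 779 with LPS, and the pore genes 130 to 157 and 147 to 160. All 4 of these sums overlapped between the groups.

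The list of proteins that bind, anchor or tune these channels held 31 symbols, with Nalf1 and Nalf2 as other names of Fam155a and Fam155b. Of these symbols, 28 were tested in cortex, and 3 rose and 5 fell. That is 28.6% called, against 41.2% of all genes, a difference that was not tested. The median log2 change was -0.08. Fgf11 and Fgf14, fibroblast growth factor homologous factors that bind the tail of the sodium channel, went in opposite directions. Fgf11 fell by 0.77 (adjusted p = 0.000346, edgeR), from 24.0 ± 1.07 to 14.1 ± 2.02 CPM. Fgf14 rose by 0.61 (adjusted p = 0.000439), from 34.6 ± 3.38 to 52.6 ± 4.16 CPM. Of the regulators of calcium channels, Stac, an adaptor of L-type channels, fell by 1.4 (adjusted p = 0.00101, edgeR). Rem1, a small GTPase that inhibits calcium channels, fell by 1.79 (adjusted p = 0.00524, edgeR) at 0.503 ± 0.122 CPM with saline. Rem1 was at 0.380 to 0.641 CPM with saline and 0.0938 to 0.256 CPM with LPS. It passed the filter on low counts through the saline libraries, so its test is not independent of that filter. Rimbp2, which holds calcium channels at the active zone, fell by 0.53 (adjusted p = 0.00253), while the active zone protein Rims2 rose by 0.24 (adjusted p = 0.0305). Ank2, ankyrin B, was also lower (-0.17, adjusted p = 0.0452), and Fam155a, a subunit of the sodium leak channel complex, was higher (0.21, adjusted p = 0.0462).

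In hippocampus, 0 of 35 channel genes tested passed the threshold with nicotine, by edgeR, DESeq2 or limma-voom. Over all 18873 genes tested, 0% passed by edgeR, with a smallest adjusted p of 0.555, and DESeq2 called 8 higher and 7 lower. Genes at an unadjusted p under 0.05 made up 8.36% of all genes and 17.1% of channel genes, 6 of 35. They were 1 of 16 pore genes, Scn1a, and 5 of 19 auxiliary genes, Cacna2d2, Cacnb4, Cacng2, Cacng3 and Cacng7, all with higher means in nicotine libraries. That split depended on the fit. With the mean of dentate granule cell markers as a covariate it was 7 of 16 pore and 1 of 19 auxiliary genes, against 1742 of all 18873 genes. Without the libraries above 1000 CPM of Ttr, a choroid plexus gene, it was 4 and 7, against 2602 of all 18806 genes. The granule cell markers had a median log2 change of -0.49, and 0 of 7 passed the test by edgeR. Scn10a, Scn11a, Scn4a, Cacna1f and Cacng1 were left out of the test for low counts.

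Saline Sample 2N was the lowest of the 12 libraries for 23 of the 35 channel genes (65.7%), against 22.8% of all genes with an annotated length. Its median log2 difference from the mean of the other saline libraries was -0.39 over channel genes, -0.53 over pores and -0.35 over auxiliary genes, and -0.01 over all genes. Channel genes are long, and among all genes with more than 8000 bases of exon it was the lowest library for 48.7%, against 18.3% of shorter ones. Its neuronal marker mean was 8.53 in log2 CPM, the lowest of the 6 saline libraries, and its oligodendrocyte mean was the highest at 8.55. Its choroid plexus mean was 4.24, where the 6 saline libraries ranged over 0.76 to 5.74 with a median of 1.76. The part of transcript length, and of cell makeup, in these values was not tested.

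With all libraries, 30 of 35 channel genes (85.7%) had a log2 change above 0, against 50.9% of all genes, and their median was 0.10 against 0.00. The mean of 10 neuronal markers moved with them, at 8.53 to 8.85 in log2 CPM with saline and 8.86 to 8.97 with nicotine, with no overlap and with 0 of the 10 past the test by edgeR. Its part in the changes was not tested. Without Sample 2N, 25 of 35 channel genes had a log2 change above 0, with a median of 0.05. In that fit 7 of the 35 were at an edgeR unadjusted p under 0.05, against 1444 of all 19006 genes tested. Channel genes are co-expressed in neurons and are not independent of one another.

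Among the pores, Scn1a measured 72.0 CPM in Sample 2N, 93.4 to 109.5 CPM with a median of 105 in the other 5 saline libraries, and 97.7 to 129.7 CPM with a median of 120 in the nicotine libraries. The groups overlapped. The change on the log2 scale was 0.27 (edgeR unadjusted p = 0.0165, adjusted p = 0.555), and 0.19 without Sample 2N. Cacna1g, a T-type pore known from thalamic relay neurons, was at 53.0 CPM in Sample 2N, 58.8 to 69.0 CPM (median 68.3) in the other saline libraries and 61.5 to 86.3 CPM (median 70.8) with nicotine. Its change was 0.18, and 0.13 without Sample 2N (adjusted p = 0.622 with all libraries, edgeR).

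The changes of the most abundant pores per length depended on that library. Scn8a was at 244 CPM in Sample 2N, 410 to 477 CPM (median 460) in the other saline libraries and 418 to 539 CPM (median 465) with nicotine. Scn2a was at 178 CPM in Sample 2N, 307 to 333 CPM (median 312) in the other saline libraries and 289 to 380 CPM (median 324) with nicotine. Sample 2N lay far below every other library for both, and the remaining groups overlapped widely. Without it the log2 change went from 0.18 to 0.06 for Scn8a and from 0.18 to 0.07 for Scn2a. The change of Cacna1e went from 0.10 to -0.02, and those of Cacna1c, Cacna2d1, Cacng8 and Scn7a also turned below 0.

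Among the auxiliary genes, Cacng2 was at 66.3 CPM in Sample 2N, 81.1 to 86.1 CPM (median 82.5) in the other saline libraries and 84.3 to 106 CPM (median 97.2) with nicotine. Its log2 change was 0.27 (edgeR unadjusted p = 0.00168, adjusted p = 0.555), and 0.22 without Sample 2N. Cacna2d2, the alpha2delta subunit mutated in ducky mice, was at 22.9 CPM in Sample 2N, 28.0 to 36.4 CPM (median 30.3) in the other saline libraries and 33.5 to 53.7 CPM (median 36.9) with nicotine. Its change was 0.44 (edgeR unadjusted p = 0.00248, adjusted p = 0.555), and 0.38 without Sample 2N. For both genes the nicotine libraries were mostly above the saline libraries, with an overlap at the edge.

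Cacng7 was at 170 CPM in Sample 2N, 144 to 157 CPM (median 146) in the other saline libraries and 147 to 236 CPM (median 170) with nicotine. Unlike most channel genes it was highest of the saline libraries in Sample 2N, and its change was 0.21 with all libraries and 0.24 without that one. Of the 31 partner symbols, 28 were tested and 0 passed by edgeR, with 4 at an unadjusted p under 0.05 (14.3%, against 8.36% of all genes). These were Stac2 (0.34), Rims2 (0.19) and Fgf12 (0.19), with higher means with nicotine, and Fgf13 (-0.14).

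**Figure D5:**
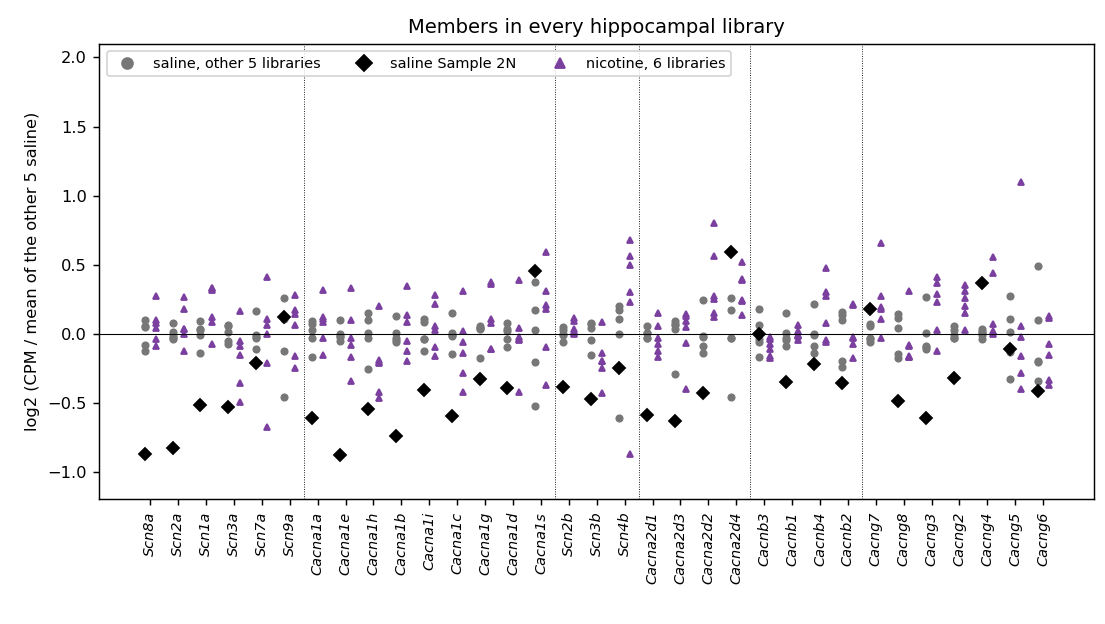
Level of 33 of the 35 channel genes tested in every hippocampal library, as log2 of CPM over the mean of the 5 saline libraries other than Sample 2N, ordered by subunit class. Grey circles are those 5 libraries, black diamonds Sample 2N and purple triangles the 6 nicotine libraries. Sample 2N is the lowest of the 12 libraries for 23 of all 35 genes, and the nicotine libraries overlap the other saline libraries throughout.

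Comparing the tissues side by side, the cortical and hippocampal contrasts share no library and no agent, and their difference was not tested. Scn1a was higher with LPS in cortex and had a change above 0 with nicotine in hippocampus that did not pass the test. Cacng3 fell with LPS by 0.50 and had a change of 0.30 with nicotine, which did not pass. Cacnb2, which rose by 0.73 in cortex, had a change of 0.08 in hippocampus (95% interval -0.13 to 0.29).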

How the data were processed

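Libraries of poly(A) RNA, extracted with TRIzol, were prepared with Universal Plus mRNA-Seq chemistry and NuQuant, per the labels. The values the authors deposited are raw counts of reads, in 1 table for each tissue, without normalization. The submitters' processing notes name fastp, STAR, featureCounts, DESeq2 and build mm10 without roles or versions. Annotation, strand setting, nicotine route and sex in hippocampus were not given in the sources used here, so reads of genes overlapping on opposite strands may be shared.

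Each tissue had its own fit of all genes in edgeR 4.0.16 (R 4.3.3), with TMM factors, filterByExpr, the quasi-likelihood F-test and Benjamini-Hochberg adjustment at a threshold of 0.05. The fit was tested on simulated counts. DESeq2 1.42.0, limma-voom (limma 3.58.1), other scalings and filters, each library left out, the title grouping and marker covariates were alternatives. The median 95% interval of a log2 change reached 0.29 to either side in cortex (totals from 36371084 counts) and 0.22 in hippocampus (from 51969343). In hippocampus, symbols for 51884 of 57180 identifiers came from GENCODE vM21, and the rest held 1.14% of the counts. No pair of libraries in a group agreed within sampling noise (lowest chi-square per degree of freedom 9.25).

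Per-length levels divide CPM by the union of annotated exons. Members, subunit classes, the partner list and marker lists were chosen with earlier results of these data known. Values in every library are given in cortex for up to 14 called genes of smallest p and the most abundant of each class, and in hippocampus for 2 pore-forming and 2 auxiliary genes of smallest p and the 2 most abundant of each. Up to 4 partners of smallest p in each direction are named. Scn2b, Scn4b and Cacna2d3 were added after their values were seen. Some genes and promoter sequences are counted in the totals but not reported here.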

Additional observations from a re-analysis of the deposited data

Results flagged for a closer look

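In 17 of 138 groups of libraries (a gene in 1 treatment group, with 4 or 6 libraries), 1 library lay further from the rest than Dixon's 95% limit for the gap allows. Chance flags about 1 in 20 groups, and genes of the same library are not independent. Of the 17, 5 were in cortex and 12 in hippocampus, and saline Sample 2N accounted for 9.

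In cortex, the saline libraries in question were Sample 8L for Cacnb2 (54.5 CPM, others 47.9 to 49.0), Sample 1L for Cacnb3 (372.6 CPM, others 330.6 to 337.5) and Sample 6L for Scn1a (90.7 CPM, others 108.1 to 111.6). The LPS libraries were Sample 7L for Cacnb3 (315.1 CPM, others 248.7 to 255.9) and Sample 2L for Scn10a (8.25 CPM, others 3.66 to 4.29). All 4 genes kept their call without these libraries.

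In hippocampus, saline Sample 2N was lowest for the pores Cacna1b (75.8 CPM, others 121.8 to 138.3), Cacna1e (230.2 CPM, others 407.4 to 452.1), Scn2a (178.2 CPM, others 306.7 to 332.9), Scn3a (37.7 CPM, others 51.7 to 56.9) and Scn8a (243.9 CPM, others 409.6 to 476.7). It was lowest also for Cacna2d1 (132.8 CPM, others 195.3 to 207.8), Cacng2 (66.3 CPM, others 81.1 to 86.1) and Scn2b (218.1 CPM, others 273.5 to 295.2), and highest for Cacng4 (40.4 CPM, others 30.5 to 32.2). Nicotine Sample 9N was highest for Cacna1h (151.6 CPM, others 95.4 to 115.4) and Cacng8 (176.5 CPM, others 126.5 to 134.5). Nicotine Sample 10N was highest for Cacng5 (21.2 CPM, others 7.47 to 10.3).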

How the results depend on the processing

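The count of 15 channel genes called in cortex was 10 to 16 with each library left out in turn. It was 0 under the title grouping and 8 with the 4 libraries whose labels agree. The 4 pores called higher became 3 to 4 with a library left out and 0 by title. The 1 pore lower became 0 to 2, and 0 under both label alternatives. The 3 auxiliary genes higher became 3 to 4, then 0 by title, 1 with the agreeing libraries and 5 with the striatal or the neuronal covariate. The 7 lower became 4 to 6, then 0 by title and 3 with the agreeing libraries. With the replicate number of the titles as a block the 7 became 4, with 11 channel genes called in all (Scn8a, Cacng5, Cacng8 and Scn2b were lost). The numbers did not pair the libraries (correlations of same-numbered deviations -0.164 to -0.0346 in cortex and -0.170 to 0.438 in hippocampus), and number 5 in hippocampus alone correlated best with itself. Scn10a, Scn1a, Cacnb2, Cacng3 and Cacng4 were called in all 18 alternatives other than the title grouping, and Scn11a in all 17 that tested it. Where the filter on low counts applied, Scn11a and Cacng1 passed it through the LPS libraries only. Repeated calls are no further support for these genes. With the stricter filter of 1 CPM, Scn10a too passed through the LPS libraries only, so that call adds no support. Cacnb3, Cacnb4, Scn3b and Cacng1 were lost with the 4 agreeing libraries alone.

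By title, with all adjusted p at 1.00, the log2 change reversed for Cacna1a (0.045), Cacna1i (0.12), Cacna1s (0.16), Cacna2d1 (0.040), Cacnb2 (-0.019), Cacnb3 (0.046), Cacng1 (-0.70), Cacng4 (0.19), Cacng5 (0.47), Cacng7 (0.066), Cacng8 (0.038), Scn10a (-0.65), Scn1a (-0.14), Scn2a (-0.10), Scn3b (0.072) and Scn8a (-0.10). It also reversed, at -0.14 to 0.23, for Cacna1b, Cacna1g, Cacna1h, Cacna2d3, Cacna2d4, Cacng2, Cacng6 and Scn3a, none of them called. Cacng7 was at 0.016 with the agreeing libraries and Cacna1c at -0.0022 to 0.22 with a library left out and, called, at 0.43 with the agreeing libraries. Called counts in hippocampus were 0 throughout. With the longest transcript as length, the auxiliary to pore ratio was 2.81 in cortex and, against 2.50 ± 0.14, 2.85 in hippocampus. Genes below a few counts, Scn10a in hippocampus among them, are limited by depth.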

Other observations

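The ratio of Scn1a to Scn3a, the sodium pores of mature and of immature neurons, was looked at after the values of both genes had been seen. In cortex it was 1.84 to 2.55 in the saline libraries and 3.11 to 3.82 with LPS, in CPM. In hippocampus it was 1.65 to 2.04 with saline and 2.12 to 2.65 with nicotine. In neither tissue did the groups overlap, and no test was run on this ratio because it was picked from the same values. Sample 2N, low for both genes, had a ratio of 1.91, inside the range of the other saline libraries. Markers of dentate granule cells had a mean log2 CPM of 5.75 to 6.33 in hippocampal saline libraries and 5.03 to 5.95 with nicotine, and their part in the ratio was not tested.

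The share of Scn8a in the summed sodium pores, per length, was 34.5% to 38.0% in cortical saline libraries and 35.0% to 38.1% with LPS. The ratio of Cacnb3 to Cacnb4 in cortex was 1.58 to 1.99 with saline and 1.01 to 1.4 with LPS. Both genes were already separated there, in opposite directions, so this ratio could not overlap and adds no support. In hippocampus it was 1.26 to 1.98 with saline and 1.06 to 1.68 with nicotine, and the groups overlapped.

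Sample 7L lay nearest to the saline libraries, among the LPS libraries, for Cacnb2, Cacnb3 and Cacng5, and its striatal marker mean was the lowest of the 8 cortical libraries at 4.49. Csrnp3, the coding gene next to Scn2a, rose with LPS by 0.34 (adjusted p = 0.0149, edgeR), and Ttc21b, next to Scn1a, had a change of -0.10 (adjusted p = 0.533). Both were chosen after their values were seen.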
